A study of Mus musculus with 4 samples.

Results

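The H3K9 demethylases outside the KDM3 family were examined in the cerebellum of mice that carry 1 functional copy of *Kdm3b*. The group holds 9 genes, *Kdm1a*, *Kdm1b*, *Kdm4a*, *Kdm4b*, *Kdm4c*, *Kdm4d*, *Kdm7a*, *Phf2* and *Phf8*, which were matched by NCBI gene number among 24532 genes in each table, and each had 1 row per library. Bulk RNA was taken from the vermis, from tissue enriched for granule cells (GCE), of 2 wild-type (WT) and 2 *Kdm3b*+/- mice, and each mouse gave 1 library. The labels name the tissue as cerebellum, and the methods describe GCE tissue as cut by hand from vermal slices. The *Kdm3b*+/- mice carried the pGT0lxf gene-trap vector in an intron of *Kdm3b* in every cell, derived from 1 embryonic stem cell line. They were backcrossed to C57Bl/6N and then crossed to C57Bl/6J, and both genotypes were adult male littermates. The sources used here describe no treatment of the sequenced mice and do not say whether they had behavioral training.

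Lysine 9 of histone H3 carries mono-, di- or tri-methyl marks, and the di- and tri-methylated forms mark silent chromatin. Enzymes of separate chemistry remove them. The KDM1 enzymes KDM1A (LSD1) and KDM1B (LSD2) are FAD-dependent amine oxidases that take off mono- and di-methyl groups, best known from lysine 4 of H3, with lysine 9 as a further substrate. The KDM4 and KDM7 enzymes carry a JmjC domain and use iron and 2-oxoglutarate, as KDM3B does. KDM4 enzymes act on tri- and di-methylated lysine 9, and KDM7A, PHF2 and PHF8 act on lower methylation states and hold a PHD finger that reads tri-methylated lysine 4. In brain, KDM1A is studied for neuronal differentiation and memory, and mutations of human *PHF8* cause intellectual disability.

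The aligned depth was between 4.92 and 6.69 gigabases per library, with the lowest depth in WT mouse 1 and the highest in *Kdm3b*+/- mouse 2. TPM counts transcripts per 1000000 in a library after division by length, so it can be compared between genes, and it carries no depth. *Kdm3b* itself had a TPM of 9.10 and 11.0 in WT libraries and of 8.30 and 7.90 in *Kdm3b*+/- libraries (adjusted p = 0.424, limma). Reads on exons upstream of the trap would count as well, and their part in these values was not tested. All 12 granule cell markers were detected, with a summed TPM of 5855 and 6956 in WT libraries and of 5696 and 5807 in *Kdm3b*+/- libraries. The 8 oligodendrocyte markers summed to between 15062 and 17978. The 10 Purkinje cell markers summed to 1635 and 723 in WT libraries and to 915 and 738 in *Kdm3b*+/- libraries. All 10 had a log2 fold change below 0, where 60.4% of all tested genes did. The 8 inhibitory interneuron markers summed to 215 and 167 in WT libraries and to 136 and 143 in *Kdm3b*+/- libraries. Of the 6 microglia and the 6 endothelial markers, 4 each had a log2 fold change above 0 and 2 below it. By limma, *Aqp4* (astrocyte list) was higher in *Kdm3b*+/- mice (adjusted p = 0.033). *Mobp* (oligodendrocyte list) was lower (adjusted p = 0.013, limma). The 4 choroid plexus markers summed to a TPM between 0.906 and 3.57, of which *Clic6* made up 2.84 in WT mouse 1, while *Ttr* was at 0 in WT mouse 2 and *Folr1* in *Kdm3b*+/- mouse 1. In such bulk tissue fewer cells of a type and less RNA per cell cannot be told apart.

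The genes lie on 6 chromosomes in the GRCm38 coordinates of the tables. *Kdm4c* (74242497 to 74405864, forward strand), *Kdm4a* (118137004 to 118180043, reverse strand) and *Kdm1a* (136550533 to 136602723, reverse strand) are on chromosome 4. *Kdm1b* (47043499 to 47085279, forward strand) and *Phf2* (48801750 to 48870885, reverse strand) lie 1.72 Mb apart on chromosome 13. *Kdm7a* is on chromosome 6 (39136620 to 39206773), *Kdm4d* on chromosome 9 (14462581 to 14500482), *Kdm4b* on chromosome 17 (56326050 to 56402873) and *Phf8* on chromosome X (151520672 to 151633857). The longest coding transcript in GENCODE has between 20 and 23 exons for 8 of the genes and 2 exons for *Kdm4d*.

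RefSeq promoter sequences of GRCm38.p6 matched 8 of the 9 genes, with *Kdm4b* as the other. The 250 bases before the start are shown for *Kdm1a*, the gene with the highest level, for *Kdm7a*, the gene whose TPM was higher in both *Kdm3b*+/- mice, and for both starts of *Kdm4c*, whose level depends on the measure. Capitals mark CG dinucleotides, the sites of DNA methylation. The windows are chr4:136602724-136602973 (reverse strand), chr6:39206774-39207023 (reverse strand), chr4:74242247-74242496 and chr4:74251629-74251878 (forward strand), in the order of the lines, each written 5′ to 3′ along its gene.
Kdm1a: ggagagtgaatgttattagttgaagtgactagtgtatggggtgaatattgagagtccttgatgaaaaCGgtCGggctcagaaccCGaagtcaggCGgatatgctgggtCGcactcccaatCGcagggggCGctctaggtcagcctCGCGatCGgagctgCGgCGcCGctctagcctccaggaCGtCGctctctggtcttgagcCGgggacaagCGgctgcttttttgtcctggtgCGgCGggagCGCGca
Kdm7a: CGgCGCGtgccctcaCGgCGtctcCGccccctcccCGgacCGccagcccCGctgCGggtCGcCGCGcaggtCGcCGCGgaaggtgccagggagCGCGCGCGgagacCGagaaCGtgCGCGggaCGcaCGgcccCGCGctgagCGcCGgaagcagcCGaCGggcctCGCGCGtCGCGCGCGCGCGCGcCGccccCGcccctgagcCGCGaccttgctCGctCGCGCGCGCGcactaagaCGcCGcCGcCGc
Kdm4c, upstream start: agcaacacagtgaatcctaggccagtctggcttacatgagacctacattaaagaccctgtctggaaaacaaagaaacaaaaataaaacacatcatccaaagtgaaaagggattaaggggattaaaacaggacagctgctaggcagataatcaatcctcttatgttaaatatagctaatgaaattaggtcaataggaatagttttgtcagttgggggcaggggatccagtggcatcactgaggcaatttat
Kdm4c, downstream start: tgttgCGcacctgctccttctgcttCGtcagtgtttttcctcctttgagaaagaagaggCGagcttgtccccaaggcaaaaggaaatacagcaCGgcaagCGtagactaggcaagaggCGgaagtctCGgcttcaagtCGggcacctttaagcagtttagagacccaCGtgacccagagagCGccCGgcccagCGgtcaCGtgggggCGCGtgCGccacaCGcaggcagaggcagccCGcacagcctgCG

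The *Kdm7a* window holds 56 CG dinucleotides, a number that 0.00609% of the 32851 RefSeq windows of this length reach, and the window of its paralog *Phf2* holds 50. The *Kdm1a* window holds 21, and 16.3% of all windows hold as many. The upstream start of *Kdm4c* has no CG, as do 7.87% of all windows, whereas its downstream start has 19. The other genes held between 12 (*Kdm4a*) and 22 (*Kdm1b*). Only 1 strand needs to be read, since CG is its own reverse complement.

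*Kdm1a* and *Kdm4b* were the most abundant of the 9 genes. Together they held between 61.1% and 66.6% of the summed TPM of the group in each library. *Kdm1a* had a mean TPM of 55.7 over the 4 libraries, above 72.9% of the 13652 genes whose mean TPM reached 1, and *Kdm4b* had 43.8. Then came *Kdm4c* (14.3), *Kdm7a* (12.7), *Kdm4a* (9.90), *Phf8* (9.75), *Phf2* (5.75) and *Kdm1b* (4.64). *Kdm4d*, which encodes a shorter KDM4 enzyme best known from testis, was lowest at 0.818, so the means of the group spanned 68.1-fold.

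**Figure D1:**
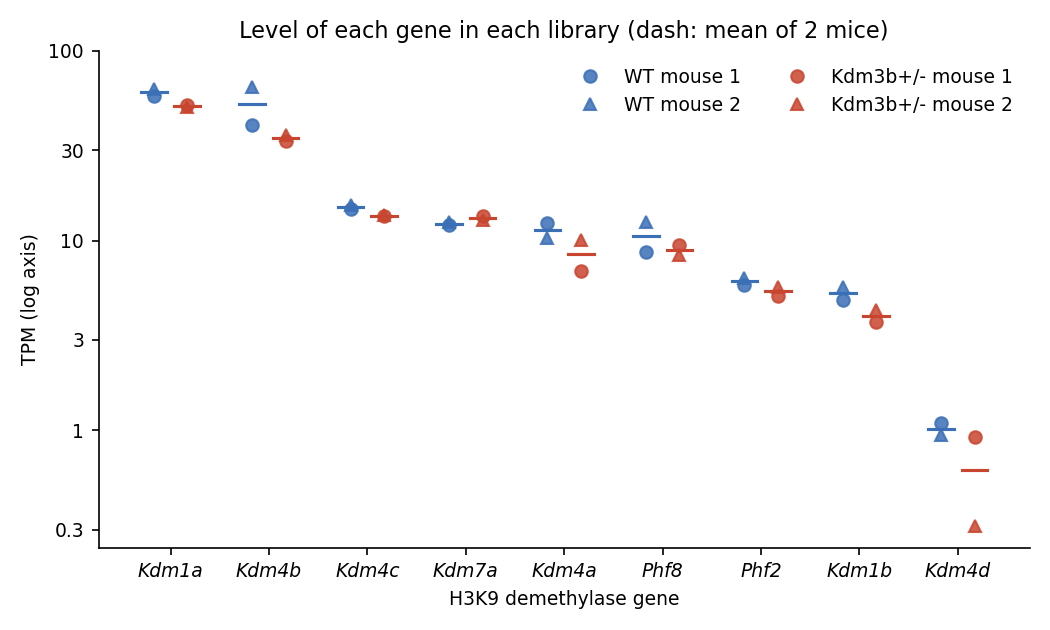
TPM of the 9 genes on a log axis in each of the 4 libraries, ordered by mean, with WT mice in blue and *Kdm3b*+/- mice in red and a dash for the mean of 2 mice. *Kdm1a* and *Kdm4b* sit above all others, *Kdm4d* lies near or below a TPM of 1, and the largest gap between WT mice is in *Kdm4b*, with 40.7 and 64.6.

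Not every neighbour in this order was separated. *Kdm1a* exceeded *Kdm4b* in 3 of 4 libraries, with WT mouse 2 as the exception, and their ranges overlapped. *Kdm7a* exceeded *Kdm4a* in 3 of 4 libraries, and *Kdm4a* exceeded *Phf8* in 2 of 4, so by TPM these levels did not differ beyond their spread. *Phf2* exceeded *Kdm1b* in all 4 libraries, although the ranges over the libraries overlapped. The ranges were apart between *Kdm4b* and *Kdm4c*, between *Kdm4c* and *Kdm7a*, between *Phf8* and *Phf2*, and between *Kdm1b* and *Kdm4d*.

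The place of *Kdm4c* changed with the deposited measure. Coverage is the average number of reads over each exonic base, and FPKM (fragments per kilobase and per 1000000 mapped) is scaled from the reads given to its transcript models, so coverage per aligned gigabase divided by FPKM is close to 1 where both describe the same length. Rounded to 2 decimals, this ratio was 1 in every library for *Kdm1b*, *Kdm4b*, *Kdm4d*, *Kdm7a* and *Phf2*, and 0.990 or 0.991 for *Kdm1a*. For *Kdm4c* it was 0.281 in all 4 libraries. By coverage per aligned gigabase *Kdm4c* therefore moved from rank 3 to rank 8, with 7.32% of the level of *Kdm1a* in place of 25.7% by TPM, and *Kdm1b* exceeded it in 3 of 4 libraries. By coverage per aligned gigabase *Kdm7a* exceeded *Kdm4a* in 4 of 4 libraries and their ranges were apart, unlike by TPM. The coding transcripts that GENCODE lists for *Kdm4c* run from 465 to 4196 bases. Their part in the ratio was not tested.

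**Figure D2:**
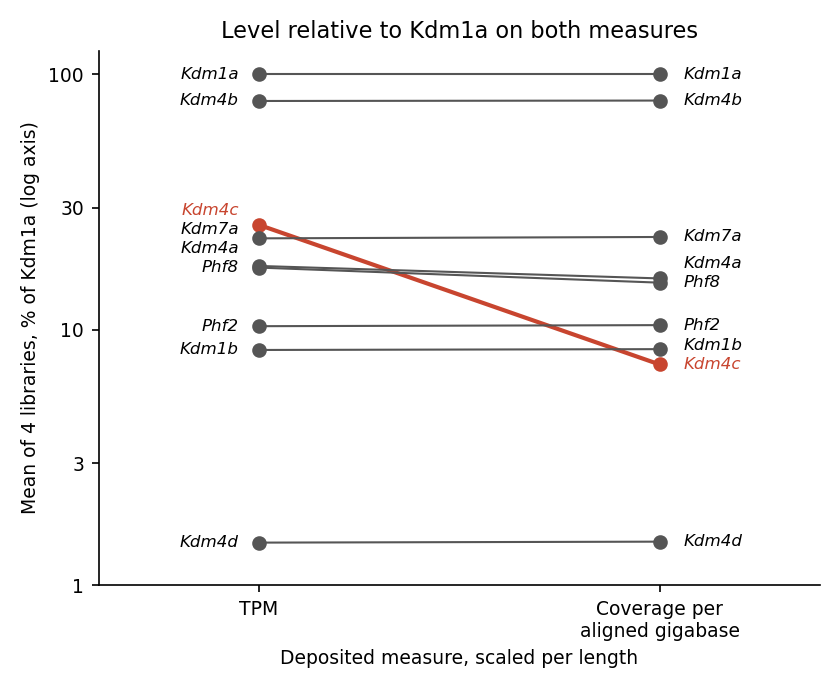
Mean level over the 4 libraries as a percentage of *Kdm1a*, on a log axis, by TPM (left) and by coverage per aligned gigabase (right), each a value per length. The lines of 8 genes are close to level, while *Kdm4c*, in red, runs from 25.7% to 7.32%.

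The ratio also varied between libraries for 2 genes. For *Kdm4a* it was 0.860 and 0.884 in WT libraries and 0.921 and 0.893 in *Kdm3b*+/- libraries. For *Phf8* it was 0.868 and 0.890 in WT libraries and 0.846 and 0.854 in *Kdm3b*+/- libraries. GENCODE lists 4 coding transcripts for *Kdm4a*, 9 for *Phf8*, 4 for *Kdm4b* and 5 for *Kdm1a*. The part of the transcript number in the ratio was not tested. A difference of this ratio between genotypes was not tested, and its separation over all genes was not counted.

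Whether loss of 1 *Kdm3b* copy comes with a different level of the other H3K9 demethylases was asked with limma, a linear model that shares the spread across genes, on log2(TPM + 1) of the same 13652 genes. Of the 9 genes, 8 passed this minimum and *Kdm4d* did not. Calls required an adjusted p below 0.05 together with a fold of more than 1.2. None of the 8 genes was called, where 0.461% of all tested genes were. With an unadjusted p under 0.05 there was 1 gene, *Kdm4b*, where 17.0% of all tested genes had one. The adjusted p ran from 0.245 (*Kdm4b*) to 0.802 (*Kdm7a*), and the median log2 fold change was −0.22 over the 8 genes and −0.07 over all tested genes. A p that misses the threshold does not show equal levels, and the intervals are given with each gene.

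The TPM of both *Kdm3b*+/- mice was below that of both WT mice for 7 of the 9 genes, above it for *Kdm7a*, and overlapped for *Phf8*. Among the 8 tested genes the groups were apart for 7, where they were apart for 51.3% of all tested genes. They were lower in *Kdm3b*+/- mice for 6 of these, against 32.0% of all tested genes, and higher for 1, against 19.2%. Under quantile normalization the groups were apart for 4 of the 9 genes, where they were apart for 50.4% of all tested genes. With 2 mice against 2 an exact permutation test cannot give a two-sided p below 0.333, so no such test was run.

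**Figure D3:**
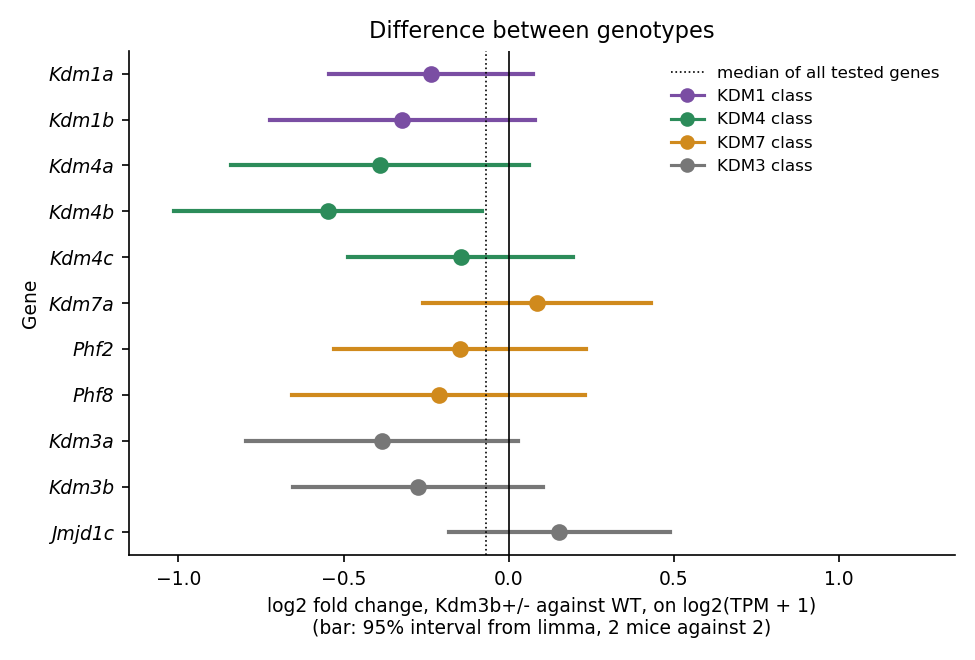
Log2 fold change of *Kdm3b*+/- against WT mice on log2(TPM + 1), with its 95% interval from limma, for the 8 tested genes and the 3 genes of the KDM3 family, colored by enzyme class. The dotted line is the median of all tested genes, −0.07, and the interval of *Kdm4b* alone lies wholly below 0.

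Among the KDM1 enzymes, *Kdm1a* encodes the catalytic subunit of the CoREST repressor complex. Its TPM was 57.8 and 62.8 in WT libraries (mean 60.3 ± 3.55, SD, n = 2) and 51.8 and 50.4 in *Kdm3b*+/- libraries (51.1 ± 1.01, SD, n = 2). The groups did not overlap, and the difference did not pass the test, at a log2 fold change of −0.23 (standard error 0.14, 95% interval −0.54 to 0.07, adjusted p = 0.405, limma). As a fold this interval runs from 0.686 to 1.053. The estimate was −0.09 once length and GC content of the transcripts were corrected for. Its coverage was between 127 and 154 reads per base.

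*Kdm1b* encodes the relative that acts on chromatin of transcribed genes. Its TPM was 4.88 and 5.66 in WT libraries and 3.74 and 4.29 in *Kdm3b*+/- libraries, again without overlap. The log2 fold change was −0.32 (standard error 0.18, 95% interval −0.72 to 0.08, adjusted p = 0.381, limma). The 3′ end of *Kdm1b* overlaps that of *Dek*, a chromatin protein gene on the opposite strand, by 513 bases. Of the 31-base words of the *Kdm1b* transcript, 9.58% also occur in another gene, and *Dek* had a TPM between 89.4 and 100.1 in the 4 libraries, higher in both *Kdm3b*+/- mice. Whether reads were counted by strand is not given in the sources used here, so reads of *Dek* in this stretch are uncertain.

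Of the 8 tested genes, *Kdm4b* and *Kdm4a* had the lowest estimates. *Kdm4b* encodes an enzyme of tri- and di-methylated lysine 9 that is widely expressed in brain. Its TPM was 40.7 and 64.6 in WT libraries (52.7 ± 16.9, SD, n = 2) and 33.6 and 36.0 in *Kdm3b*+/- libraries (34.8 ± 1.71, SD, n = 2). The *Kdm3b*+/- mice were close to each other and below both WT mice, while the WT mice differed 1.59-fold. The log2 fold change was −0.55 (standard error 0.21, 95% interval −1.01 to −0.08, adjusted p = 0.245, limma).

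The estimate for *Kdm4b* rested on WT mouse 2. Without that library the log2 fold change was −0.22, and without WT mouse 1 it was −0.87, with adjusted p-values of 0.595 and 0.0778 from limma, where the lone WT library is assumed to vary like the other group. The length and GC correction moved it to −0.31. The summed TPM of the 12 granule cell markers was likewise highest in WT mouse 2 and lowest in *Kdm3b*+/- libraries (5855, 6956, 5696 and 5807 in the order above), although 7 of these 12 markers had a log2 fold change above 0 and 5 below it. Their part in the *Kdm4b* values was not tested.

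*Kdm4a*, whose enzyme also acts on lysine 36 of H3, had a TPM of 12.3 and 10.3 in WT libraries and of 6.93 and 10.05 in *Kdm3b*+/- libraries. The higher *Kdm3b*+/- value nearly reached the lower WT value, and the groups overlapped with FPKM, median-ratio scaling or quantile normalization. The log2 fold change was −0.39 (standard error 0.20, 95% interval −0.84 to 0.06, adjusted p = 0.349, limma). It was −0.15 without *Kdm3b*+/- mouse 1 and −0.63 without *Kdm3b*+/- mouse 2, and −0.18 with the length and GC correction.

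*Kdm4c*, the third of the KDM4 enzymes with reader domains, had the least spread over the 4 libraries within the KDM4 class. Its TPM was 14.7 and 15.5 in WT libraries and 13.5 and 13.6 in *Kdm3b*+/- libraries. The groups were apart, and log2 fold change was −0.15 (standard error 0.15, 95% interval −0.49 to 0.19, adjusted p = 0.645, limma). Quantile normalization moved it to −0.02, and with coverage in place of TPM, a choice made after seeing the data, it was −0.13.

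*Kdm4d* encodes an enzyme of lysine 9 without the reader domains of the other KDM4 proteins. It was below the minimum of the test, with a TPM of 1.09 and 0.951 in WT libraries and of 0.921 and 0.314 in *Kdm3b*+/- libraries. *Kdm3b*+/- mouse 2 stood apart from the other 3 libraries, which lay close together. Its coverage was 0.961 reads per base in that library and between 2.35 and 2.44 in the others. Of the 31-base words of its transcript, 15.9% also occur in other genes, mostly in *Kdm4dl*, so reads could be shared with that copy. Without a filter on low TPM its log2 fold change was −0.35 (adjusted p = 0.508, limma).

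In the KDM7 class, *Kdm7a* was the gene with the opposite sign. Its enzyme acts on di-methylated lysine 9 and lysine 27. Its TPM was 12.02 and 12.6 in WT libraries and 13.4 and 12.8 in *Kdm3b*+/- libraries, so the groups were apart by a small margin. The log2 fold change was 0.09 (standard error 0.15, 95% interval −0.26 to 0.43, adjusted p = 0.802, limma), and it stayed between 0.05 and 0.21 over 18 alternatives. The overlapping antisense gene *4930599N23Rik* had a TPM between 1.09 and 1.92.

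*Phf2* encodes a demethylase that works with the DNA-binding protein ARID5B. Its TPM was 5.81 and 6.38 in WT libraries and 5.12 and 5.70 in *Kdm3b*+/- libraries. The gap between the groups, from 5.70 to 5.81, was narrower than the distance between the mice of either group. The log2 fold change was −0.15 (standard error 0.17, 95% interval −0.53 to 0.23, adjusted p = 0.680, limma), and it turned to 0.054 with the length and GC correction.

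*Phf8* encodes an X-linked coactivator that removes lysine 9 marks at active promoters. Its TPM was 8.69 and 12.5 in WT libraries and 9.45 and 8.35 in *Kdm3b*+/- libraries, with WT mouse 2 above the other libraries and the groups overlapping. The log2 fold change was −0.21 (standard error 0.20, 95% interval −0.65 to 0.23, adjusted p = 0.602, limma). Without WT mouse 2 it turned to 0.029, and without WT mouse 1 it was −0.45.

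**Figure D4:**
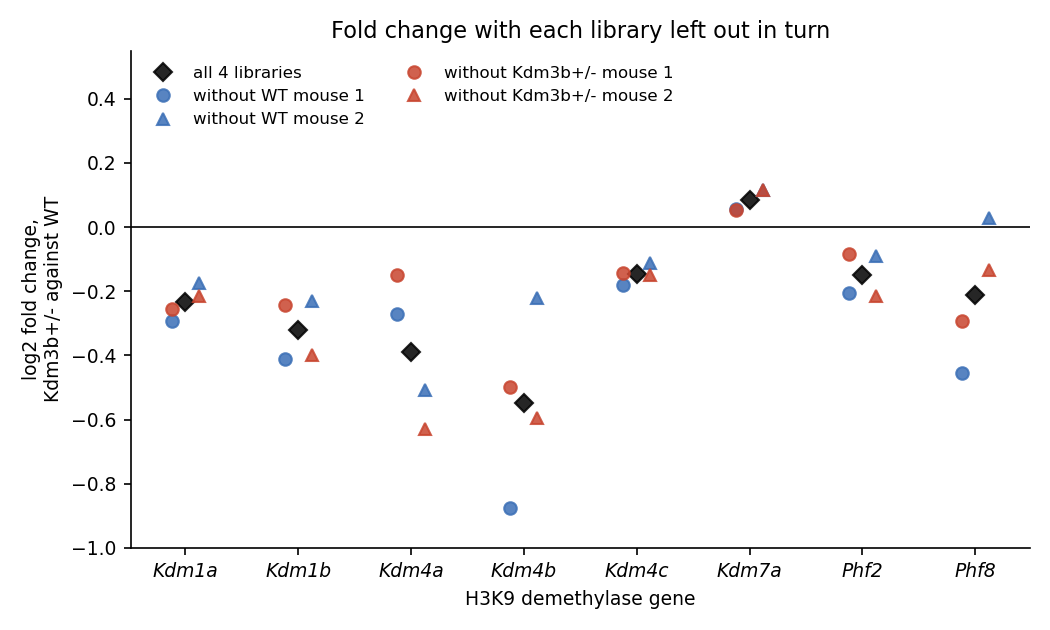
Log2 fold change of the 8 tested genes with all 4 libraries (diamonds) and after removing 1 library at a time (blue for a WT mouse, red for a *Kdm3b*+/- mouse). *Kdm4b* runs from −0.87 to −0.22 and *Kdm4a* from −0.63 to −0.15, while *Phf8* crosses 0 without WT mouse 2.

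Summed over the 9 genes, TPM was 158 and 191 in WT libraries and 139 and 141 in *Kdm3b*+/- libraries. The KDM4 genes carried most of this difference, with 68.8 and 91.4 against 55.0 and 60.0. Within this class *Kdm4b* had 40.7 and 64.6 against 33.6 and 36.0, and the estimate for that gene rested on WT mouse 2. The KDM1 genes summed to 62.7 and 68.5 against 55.5 and 54.7. The KDM7 genes summed to 26.5 and 31.5 against 28.0 and 26.8, where the groups overlapped. The KDM4 share of the sum was between 39.7% and 47.8%, and highest in WT mouse 2.

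The KDM3 family, which shares the substrate, was measured beside these genes. *Kdm3a* had a TPM of 11.2 and 15.4 in WT libraries and of 10.1 and 9.64 in *Kdm3b*+/- libraries, and *Jmjd1c* had 18.4 and 17.2 against 19.7 and 20.1. Their log2 fold changes were −0.38 (adjusted p = 0.317, limma) and 0.15 (adjusted p = 0.619). The 3 genes summed to a TPM of 38.8 and 43.6 in WT libraries and of 38.1 and 37.7 in *Kdm3b*+/- libraries, less than *Kdm1a* alone.

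The partner proteins through which these enzymes reach chromatin were then examined. Of 14 genes of the KDM1A complex (CoREST proteins, HDACs and associated factors), all were tested, 5 had a log2 fold change above 0 and 9 below it, and none was called. The median log2 fold change was −0.08, and 60.4% of all tested genes had a log2 fold change below 0. Of the 14 genes, *Rcor2* and *Ctbp1* had an unadjusted p under 0.05, as did 17.0% of all tested genes. *Rcor2*, the CoREST protein of neural progenitors, had a TPM of 4.02 and 3.78 in WT libraries and of 2.52 and 2.41 in *Kdm3b*+/- libraries, which is −0.50 in log2 fold change (standard error 0.18, adjusted p = 0.226, limma). *Rcor1*, which was more abundant, had 27.1 and 29.9 against 26.8 and 27.3 (−0.07). The highest value of the list was in *Hdac1*, a deacetylase of the complex, with a log2 fold change of 0.12.

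Of 7 partners of the other enzymes, none was called and the median was 0.01. *Glyr1*, which encodes the cofactor of KDM1B on nucleosomes, had the lowest estimate, with a TPM of 149.7 and 168 in WT libraries and of 131 and 128 in *Kdm3b*+/- libraries (−0.29, adjusted p = 0.303, limma). *E2f1* had the highest, 0.46, at a TPM between 1.59 and 3.87. *Arid5b*, the partner of PHF2, had 9.93 and 13.05 against 13.05 and 12.4, so the groups overlapped.

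The 9 other JmjC histone demethylases, which act on lysines 4, 27 and 36 of H3, had 4 log2 fold changes above 0 and 5 below it, with a median of −0.02 and none called. Of all tested genes, 60.4% had a log2 fold change below 0. The estimates of these 9 genes ran from −0.23 in *Kdm2a* to 0.20 in *Kdm6b*. The groups were apart for 4 of these 9 genes, 1 lower and 3 higher in *Kdm3b*+/- mice, where 51.3% of all tested genes were apart, 32.0% lower and 19.2% higher. Of the 9 JmjC hydroxylases none was called either, and the median was −0.10. *Hif1an*, the asparagine hydroxylase of HIF, had the lowest value, with a TPM of 11.1 and 13.2 against 8.43 and 8.66 (−0.46, adjusted p = 0.233, limma), and *Tyw5* the highest, 0.14.

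**Figure D5:**
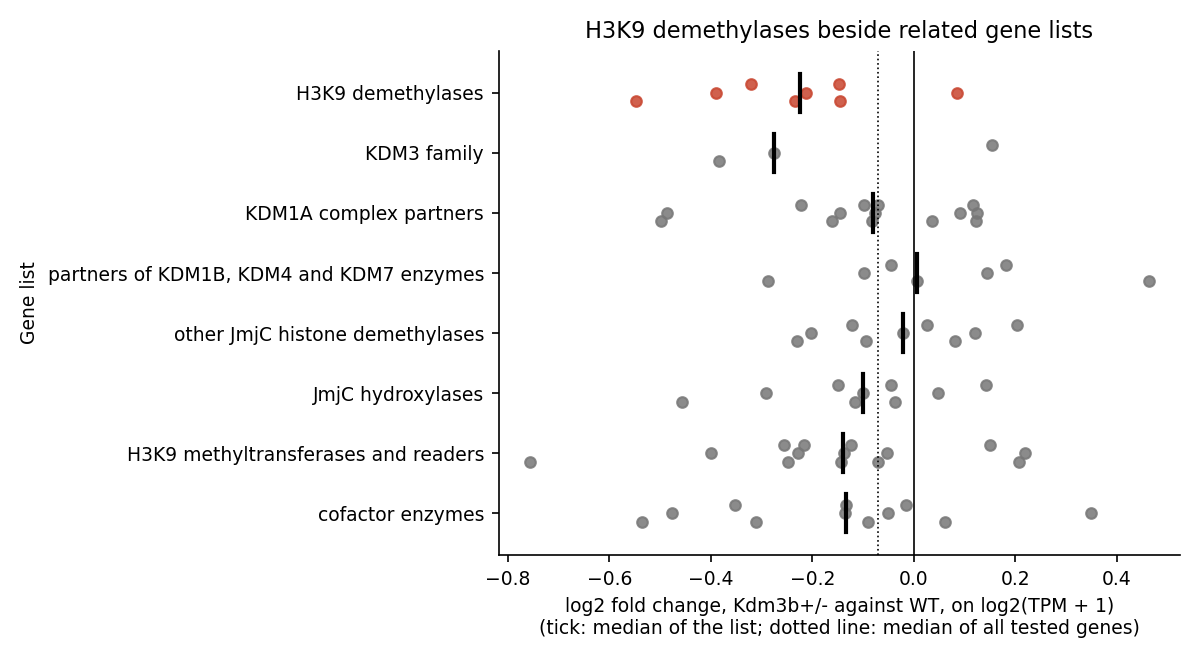
Log2 fold change of each tested gene, *Kdm3b*+/- against WT mice, for the H3K9 demethylases (red) and 7 related lists (grey), with the median of each list as a tick and the median of all tested genes as a dotted line. The median of the H3K9 demethylases is −0.22, that of the 3 genes of the KDM3 family is −0.27, and that of the other JmjC histone demethylases is −0.02. The highest median, 0.01, is that of the partners of KDM1B, KDM4 and KDM7 enzymes. Single genes of the lists run from −0.76 to 0.46.

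The genes with the profile most like that of a member were sought for the 3 tested genes with the largest fold changes, as the smallest root mean square difference of log2(TPM + 1) over the 4 libraries after centering each gene on its mean. For *Kdm4b* they were *Aacs* (0.0188) and *Adcy3* (0.0256), for *Kdm4a* they were *Sdr42e1* (0.0181) and *Slc22a18* (0.0184), and for *Kdm1b* they were *Clptm1* (0.00494) and *Trim37* (0.00928). With only 4 libraries such likeness is common. A difference under 0.1 was found for 168, 169 and 1911 of 13644 genes.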

How the data were processed

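Gene abundances of GCE tissue were analysed in 2 WT and 2 *Kdm3b*+/- mice, grouped by the genotype in the labels. The members and all gene lists were chosen with earlier results of these data known. After quality trimming, the authors aligned with STAR, estimated abundances with StringTie and deposited coverage (mean read depth over exons, not normalized), FPKM (per length and per 1000000 mapped fragments) and TPM (per length, scaled to 1000000 per library). Versions, genome build and annotation are not given in the sources used here. Of the gene numbers, 99.6% lay on the chromosome that a RefSeq table of GRCm38 gives, and 24462 of 24532 had a symbol.

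Depth was taken as the most frequent ratio of coverage to FPKM, shared within 1% by 75.9% to 76.1% of the rows with an FPKM over 0.1. Entries of a gene were summed. TPM is not a count, so the DESeq2 test of the methods was replaced by limma version 3.58.1 (lmFit, eBayes with trend, R version 4.3.3) on log2(TPM + 1), with Benjamini-Hochberg adjustment over 13652 genes whose mean TPM reached 1. This scale understates changes of low genes. The fold threshold of the methods was read as 1.2, not as its log2. The p-values weigh each difference against the spread between mice within a genotype, which is drawn toward that of genes with a similar level. Named genes are the members, *Kdm3b*, and the called and the extreme genes of each list of chromatin or cofactor genes. The 2 genes with the profile nearest to each of 3 members, and marker genes at or near 0, are named as well. *Ctbp1*, *Rcor1*, *Arid5b*, *Dek*, *Kdm4dl*, *4930599N23Rik*, *Setdb1*, *Idh2*, *Aqp4* and *Mobp* were picked with their values in view. For 1 gene of the cofactor list, only its place in the counts is given and its own values are not reported here. Alternatives were a pseudocount of 0.1, FPKM, quantile normalization, median-ratio scaling, no filter or a minimum mean TPM of 5, removal of the 20 highest genes before scaling, only the highest row of a gene, eBayes without trend, robust eBayes (statmod version 1.5.0), a replicate block, a loess correction for the length and GC content of GENCODE transcripts, each library left out, and other thresholds; coverage was added after seeing the data. The script was tested on simulated data. Tables and plots used pandas version 2.3.3, NumPy version 2.4.6, Matplotlib version 3.10.9 and Python version 3.11.15.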

Additional observations from a re-analysis of the deposited data

How the results depend on the processing

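None of the 8 tested genes (7 with a minimum TPM of 5, without *Kdm1b*) was called with any of the 18 refits or with either other threshold, an adjusted p alone or a log2 fold change over 1.2. All 8 kept the sign of the fold change except *Phf2*, at 0.054 with the length and GC correction (adjusted p = 0.883, limma, and 0.896 with the replicate block as well), and *Phf8*, which ran from −0.45 to 0.029 with each library left out, the upper end being without WT mouse 2. The number of genes whose groups were apart was 8 of 9 by TPM, 6 with FPKM or median-ratio scaling, and 4 with quantile normalization. Of all tested genes, 51.3% were apart by TPM, 50.6% with FPKM, 50.5% with median-ratio scaling and 50.4% with quantile normalization. *Kdm4a*, *Kdm4d* and *Phf8* overlapped with FPKM and median-ratio scaling, and *Kdm4c* and *Phf2* as well with quantile normalization. The cause was not tested. Mice with the same number are different animals, and their deviations from the group means correlated at 0.121. With the replicate block 0 members and 600 of all genes were called (63 without it), and the adjusted p of *Kdm4b* was 0.0656 (limma). The number of called genes was 38 with FPKM, 1 without a filter, 37 without trend, and between 21 and 188 with a library left out. *Kdm4d* was tested only without the filter. With the length and GC correction alone, the median log2 fold change was −0.10 for the 8 genes and −0.01 for all tested genes. With quantile normalization these medians were −0.13 and 0.005. None of the 8 genes had an unadjusted p under 0.05 in either setting, where 1951 of 12904 and 2147 of 13652 tested genes did. Depth entered no test, since TPM carries none, so counting error is not separated from the spread between mice.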

Other observations

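Genes that set the cofactors of these enzymes were also measured. Of 11 genes for FAD and 2-oxoglutarate supply and for the removal of 2-hydroxyglutarate, a competitor of 2-oxoglutarate, none was called and 3 had an unadjusted p under 0.05, where 17.0% of all tested genes had one. Of the 11 genes, 2 had a log2 fold change above 0 and 9 below it, where 60.4% of all tested genes were below 0. The median log2 fold change was −0.13, and it was −0.07 over all tested genes. *D2hgdh*, which encodes an enzyme that removes 2-hydroxyglutarate, had the lowest value, with a TPM of 11.9 and 11.5 in WT libraries and of 7.11 and 8.44 in *Kdm3b*+/- libraries (−0.54, standard error 0.16, adjusted p = 0.183, limma). *Idh2*, the mitochondrial isocitrate dehydrogenase, stood at −0.31 on the log2 scale (adjusted p = 0.275, limma). *Idh1*, a cytosolic source of 2-oxoglutarate, had the highest value, 0.35, with 38.6 and 32.3 against 41.4 and 49.4 (adjusted p = 0.307).

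The enzymes that write H3K9 methylation and the proteins that read it, the counterpart of the demethylases, had 14 tested genes of 15, none called. Their log2 fold changes were above 0 for 3 and below it for 11, with a median of −0.14, where 60.4% of all tested genes were below 0. The lowest was *Atf7ip*, the partner that stabilises the methyltransferase SETDB1, with a TPM of 14.1 and 18.3 in WT libraries and of 9.83 and 8.44 in *Kdm3b*+/- libraries (−0.76, standard error 0.18, adjusted p = 0.127, limma). *Setdb1* itself had 12.9 and 16.9 against 12.7 and 13.8, so the groups overlapped. The highest was *Cbx5*, which encodes HP1 alpha, with 19.9 and 21.7 against 25.1 and 23.6 (0.22, adjusted p = 0.468).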
